A study of Mus musculus with 30 samples.

Results

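The cadherins are calcium-dependent adhesion proteins, and the group described here is the mouse cadherin superfamily without E-cadherin and N-cadherin. It was chosen by symbol: numbered Cdh genes other than Cdh1 and Cdh2, every Pcdh gene, Fat1 to Fat4, Dchs1, Dchs2 and Celsr1 to Celsr3. The rule used no measured value and found 100 of the 29555 genes in the deposited RNA tables. Of the 158917 accessible regions counted in the ATAC-seq comparison of epiblast stem cells with endoderm, 605 overlapped one of these genes or lay within 2 kb of it. In the ATAC-seq table of epiblast stem cells from several strains, 704 of 181059 regions did.

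Poly(A) RNA-seq and ATAC-seq, which counts transposase insertions in open chromatin, were made from mouse epiblast stem cells (EpiSCs) in culture and from definitive endoderm derived from them. RNA of C57BL/6 (B6) cells came from 5 EpiSC libraries (replicates 1, 2, 4, 44 and 51) and 4 endoderm libraries (replicates 2, 4, 44 and 51), and ATAC-seq from 4 of each, with EpiSC replicates 1, 4, 44 and 51. EpiSC RNA was also measured in 3 PWK/PhJ libraries, 3 B6.129 F1 libraries and 1 DBA/2J library, and EpiSC ATAC-seq in 2 PWK/PhJ libraries and 1 DBA/2J library; 3 samples of PWK endoderm are not analysed here. All cells are labelled as passages 5 to 10 with no treatment, and no genetic modification is given. The EpiSCs of every strain grew on feeder cells with Fgf2, ActivinA and the Wnt inhibitor NVP-TNKS656. They were lifted with collagenase, a step meant to leave the feeders behind. Endoderm was induced with CHIR99201 and ActivinA for 16 h and then with ActivinA and LDN193189 for 24 h, the whole being labelled as 46 h. CXCR4-positive cells were kept with magnetic beads, so the endoderm libraries are a sorted fraction and the EpiSC libraries are not. In PWK RNA and ATAC-seq, and in B6.129 F1 RNA, 1 column's name matches no labelled replicate. Each was assigned by its strain name alone and is called unnumbered. The labels do not say that replicates came from separate animals or derivations, so the p-values measure only the spread between these libraries.

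Classical cadherins join like cells through their extracellular repeats and are tied to actin by catenins, and they are grouped as type I and type II by their adhesive interface. Fat and Dachsous proteins are giant cadherins that bind each other across cell borders, and Celsr proteins are cadherin receptors of the planar polarity pathway, which aligns cells within a sheet. Protocadherins are the largest branch. Most lie in the Pcdha, Pcdhb and Pcdhg clusters, where each gene begins at its own variable exon, and these clusters are best known for giving single neurons distinct surface identities. Cadherin switching, in which a cell changes the cadherins it carries, is a textbook part of germ layer formation.

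The RefSeq table of promoters (assembly GRCm38.p6, the same build as mm10) held 32 promoters for 29 members, each with 250 bases before the start site. The 4 shown here were chosen after their values were seen. They mark both ends of the range described below: at Cdh6 and Cdh9 the accessible region at the promoter shrank in endoderm, whereas at Fat3 and Celsr3 the RNA fell with no called change at the promoter. Each is written 5′ to 3′ in the direction of the gene, with every CG dinucleotide in capitals.
Cdh6, chr15:13173676-13173925, minus strand: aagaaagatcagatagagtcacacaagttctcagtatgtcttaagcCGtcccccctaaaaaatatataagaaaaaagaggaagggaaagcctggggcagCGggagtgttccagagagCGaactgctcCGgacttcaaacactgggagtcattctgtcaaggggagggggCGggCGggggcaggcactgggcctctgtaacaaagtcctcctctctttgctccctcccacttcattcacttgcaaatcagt
Cdh9, chr15:16728665-16728914, plus strand: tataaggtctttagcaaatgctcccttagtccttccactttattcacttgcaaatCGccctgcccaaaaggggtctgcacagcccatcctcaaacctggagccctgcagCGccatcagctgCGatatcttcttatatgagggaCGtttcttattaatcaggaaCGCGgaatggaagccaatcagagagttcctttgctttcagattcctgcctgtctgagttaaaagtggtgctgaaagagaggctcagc
Fat3, chr9:16502055-16502304, minus strand: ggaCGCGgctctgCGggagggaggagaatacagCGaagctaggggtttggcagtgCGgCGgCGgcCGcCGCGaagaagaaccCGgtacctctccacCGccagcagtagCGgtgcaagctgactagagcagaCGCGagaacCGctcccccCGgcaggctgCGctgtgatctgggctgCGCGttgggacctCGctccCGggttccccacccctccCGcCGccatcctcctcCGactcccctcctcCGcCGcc
Celsr3, chr9:108825795-108826044, plus strand: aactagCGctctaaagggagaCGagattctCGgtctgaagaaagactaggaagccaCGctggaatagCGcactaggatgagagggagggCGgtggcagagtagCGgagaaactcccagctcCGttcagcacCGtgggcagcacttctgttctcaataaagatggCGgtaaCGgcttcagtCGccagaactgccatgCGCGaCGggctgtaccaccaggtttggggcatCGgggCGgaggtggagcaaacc
The Cdh6 and Cdh9 promoters held 6 CG dinucleotides each, which is the median of all 32851 promoters of the table. The Celsr3 promoter held 17, a number reached by 23.5% of all promoters, and the Fat3 promoter held 27, reached by 8.6%. The motif CAGGTG, an E-box letter string searched on both strands, occurred in the promoters of 4 members and in 17.22% of all promoters. The GATA string AGATAA occurred in 1 member and in 9.99% of all promoters. None of the 4 promoters printed here held either string, which says only that those letters are not in these windows.

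The markers matched the labels. The summed level of 5 pluripotency genes ran from 1782 to 2673 CPM (counts relative to the scaled library total) in B6 EpiSCs and from 157 to 238 in endoderm, and that of 5 endoderm genes from 25.1 to 262 and from 5163 to 11614. Feeder fibroblast genes varied among the libraries. Their summed CPM was 48.6, 1005, 338, 921 and 2389 in EpiSC replicates 1, 2, 4, 44 and 51, and 229, 64.7, 55.2 and 67.1 in endoderm replicates 2, 4, 44 and 51. Of lists for other cell types, neural genes summed to 52.3 to 108 CPM in EpiSCs and 3.05 to 16.1 in endoderm, and endothelial genes to 2.97 to 5.08 and 0.203 to 1.31. Mesoderm genes summed to 1.29 to 2.45 and 1.09 to 2.85 CPM, and 2 of 3 tested visceral endoderm genes were higher in endoderm. All 7 feeder genes were called lower in endoderm, so their levels are given below beside the members that moved with them. In the table of strains the feeder sum was 50.7 to 2487 in B6, 1894 to 2748 in PWK and 118 to 183 in B6.129 F1. RNA libraries held 22829536 to 66563933 counts and ATAC-seq libraries 3751526 to 9571127. Endoderm replicate 51 stood apart on chromosome 8: 559 genes there with at least 1 CPM in every library had a median log2 ratio of 0.56 to the mean of the other endoderm libraries, against 0.03 for the 9832 other genes. The other 3 endoderm libraries lay between -0.24 and -0.13 on chromosome 8. Values without that library are given for the members on chromosome 8.

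In B6 endoderm the cadherin superfamily was lower more often than higher. Of the 100 members, 59 had enough counts to be tested with edgeR's quasi-likelihood test, 25 of them (42.4%) were lower, 6 (10.2%) were higher and 28 were not called, at an adjusted p under 0.05. Among all 14085 genes tested, 30.6% were lower and 31.5% higher. The median log2 change was -1.89 over the tested members and -0.01 over all genes. The test keeps a gene with enough counts in 1 of the groups, and 41 members were not tested, 21 of which had at most 10 counts in every library. In 24 members all 4 endoderm libraries held 0 counts, and 14 of those had more than 3 counts in at least 1 EpiSC library. With at least 10 counts required in every library, 11 members were lower, beside 3552 lower and 3779 higher of all 11361 genes then tested. The number of members then tested is not given here, so no share of members is set against these. In bulk RNA, fewer cells carrying a transcript and less transcript per cell cannot be told apart.

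**Figure D1:**
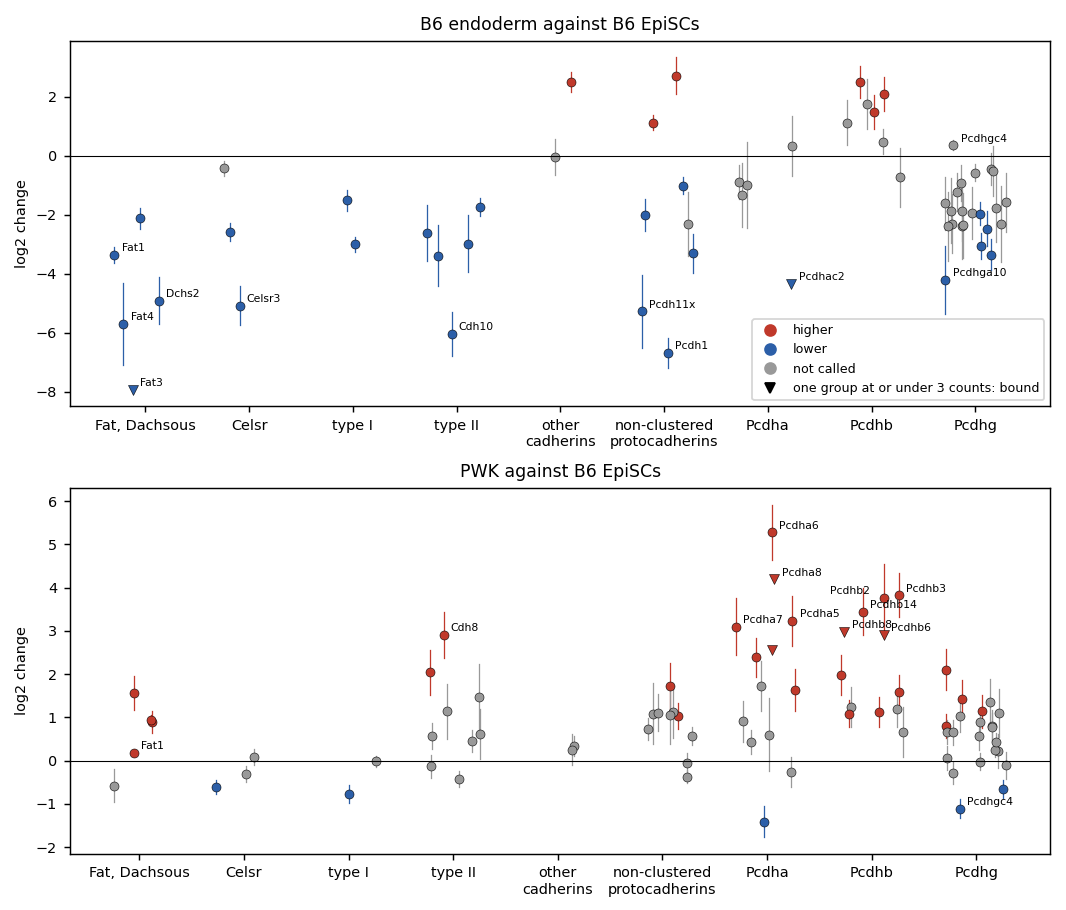
Log2 change of each tested member by subfamily, B6 endoderm against B6 EpiSCs (top) and PWK against B6 EpiSCs (bottom), with SE bars. Triangles are bounds for members with at most 3 counts in every library of 1 group; in endoderm all tested Fat and Dachsous members lie below 0, and in PWK most called Pcdha and Pcdhb members lie above it.

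The Fat and Dachsous group fell as a whole among its tested members, 5 of 5, and Fat2 was not tested. Fat1 (ENSMUSG00000070047), a giant cadherin that links cell contacts to actin and Hippo signalling, had 799, 812, 906, 782 and 750 CPM in the EpiSC libraries and 41.8, 100, 72.1 and 99.5 in endoderm. Every EpiSC library was far above every endoderm library. The log2 change was -3.37 (SE 0.26, edgeR adjusted p = 3.39e-06), and it was -3.50 without endoderm replicate 51. Fat3 (ENSMUSG00000074505), a relative with roles in neuronal shape, had 22.4, 19, 19.4, 26.3 and 25.4 CPM in EpiSCs and no count in any endoderm library. Taking 3 counts as the limit of each empty library, Fat3 was at least 246-fold lower (edgeR adjusted p = 1.11e-06).

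Fat4, the receptor of the Dachsous ligand, had 2.46, 5.94, 3.43, 3.56 and 10.4 CPM in EpiSCs and 0.508, 0, 0 and 0 in endoderm (log2 change -5.71, SE 1.40, edgeR adjusted p = 0.00493). The size of this change rests on endoderm replicate 2, since the other 3 endoderm libraries held no count and the fitted value without it was -10.54. Among the EpiSC libraries the lowest and the highest value were those of replicates 1 and 51, which also had the least and the most feeder RNA. Replicate 1, with 48.6 CPM of feeder genes, had 2.46 CPM of Fat4, and the highest endoderm library had 0.508. The part of the feeders in the Fat4 difference was not tested. Dchs1, a Dachsous ligand, fell from 26.4 ± 5.38 CPM (SD, n = 5) to 6.04 ± 3.33 (SD, n = 4). Its paralog Dchs2 fell from 1.19 ± 0.318 to 0.0283 ± 0.0391 CPM with the same n (log2 change -4.93, SE 0.80, edgeR adjusted p = 0.000383). The change was -5.93 without endoderm replicate 4. Added up, the Fat and Dachsous members went from 865 ± 53.9 to 84.7 ± 29.8 CPM. Fat1 alone had means of 810 and 78.4 CPM, so this sum mostly repeats the Fat1 values.

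The Celsr receptors did not move as one. Celsr3 had 25.5, 29.2, 29.8, 33 and 19.9 CPM in EpiSCs and 0, 1.39, 0.821 and 0.849 in endoderm, and was lower (log2 change -5.08, SE 0.66, edgeR adjusted p = 9.06e-05). Celsr2 had 34.3, 55.8, 37.8, 47.3 and 50.8 CPM in EpiSCs and 4.93, 11.6, 4.57 and 8.94 in endoderm (log2 change -2.58, SE 0.31, edgeR adjusted p = 5.89e-05). Neither overlapped between the groups. Celsr1, the member best known from epithelial planar polarity, had 33.3, 35.7, 52.8, 40.8 and 30.9 CPM against 31.5, 31.1, 36.4 and 16.4. These ranges overlapped, and its log2 change of -0.43 (SE 0.25) did not pass the test (edgeR adjusted p = 0.158).

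All 7 tested classical cadherins were lower, 2 of type I and 5 of type II. Cdh4, also called R-cadherin, had 36.7, 25.3, 32.3, 35.5 and 27.2 CPM in EpiSCs and 2.39, 3.51, 4.34 and 5.34 in endoderm (log2 change -3.0, SE 0.26, edgeR adjusted p = 7.23e-06). Cdh3, or P-cadherin, had 25.8, 49.9, 40.2, 47.6 and 28.9 CPM against 6.1, 13.3, 11.4 and 23.1. The endoderm library nearest to EpiSCs was replicate 51, and Cdh3 lies on chromosome 8. Its log2 change was -1.51 (SE 0.36, edgeR adjusted p = 0.00437), and -1.90 without that library. Cdh15 was not tested.

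Among type II cadherins, Cdh10 (ENSMUSG00000022321) showed the clearest loss. It had 14.9, 10.9, 14.6, 15.2 and 13.8 CPM in EpiSCs and 0.102, 0.116, 0 and 0.515 in endoderm (log2 change -6.05, SE 0.75, edgeR adjusted p = 6.6e-05). Without endoderm replicate 51 it was -7.38. Cdh22 had 5.08, 3.16, 8.01, 6.44 and 6.02 CPM against 0.102, 0.166, 0 and 1.8 (log2 change -3.39, SE 1.05, edgeR adjusted p = 0.0163). Endoderm replicate 51 carried most of what was left of Cdh22, and without it the log2 change was -5.81. Outside the rule for named genes, and chosen after their values were seen, Cdh24 and Cdh6 were lower as well, with log2 changes of -1.74 and -2.62.

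Cdh11, a cadherin typical of mesenchyme and fibroblasts, behaved differently from the rest. It had 1.67, 20.9, 7.93, 21.1 and 60.8 CPM in EpiSC replicates 1, 2, 4, 44 and 51 and 4.57, 4.72, 0.391 and 1.71 in endoderm. The order of the EpiSC libraries was nearly that of their feeder genes, and replicate 1, with the least feeder RNA, lay below 3 endoderm libraries. Cdh11 was called lower (log2 change -2.98, SE 0.97, edgeR adjusted p = 0.0211), but not without EpiSC replicate 51 (-2.19, adjusted p = 0.053) nor without endoderm replicate 51 (-2.79, adjusted p = 0.0565). It was the exception among the 25 lower members: in the other 24, EpiSC replicate 1 was above every endoderm library. That count follows from the calls, which used replicate 1, since those 24 had no overlap between the groups. The part of the feeders in these calls was not tested.

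**Figure D2:**
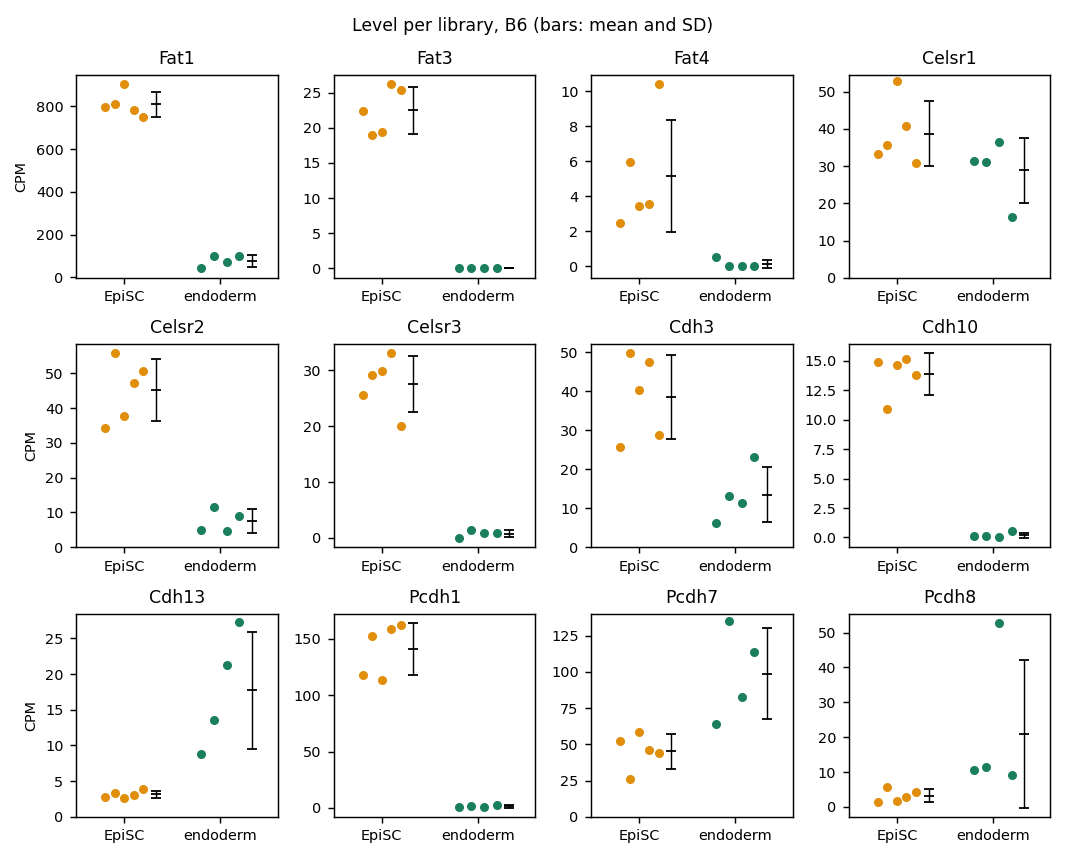
CPM of 12 members in each B6 EpiSC and endoderm library, with the mean and SD of each group. Fat1, Pcdh1 and Cdh10 separate without overlap, Fat4 spreads from 2.46 to 10.4 CPM among EpiSCs, and Pcdh7 and Cdh13 are higher in endoderm.

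Against this direction, a GPI-anchored cadherin and a pair of protocadherins were higher. Cdh13, or T-cadherin, which lacks the cytoplasmic tail of the other cadherins, had 2.77, 3.27, 2.63, 3.04 and 3.95 CPM in EpiSCs and 8.79, 13.6, 21.3 and 27.2 in endoderm (log2 change 2.50, SE 0.33, edgeR adjusted p = 0.000105). Cdh13 lies on chromosome 8, and without endoderm replicate 51 its log2 change was 2.22. Pcdh7 (ENSMUSG00000029108) had 52.2, 25.9, 58.3, 46 and 43.9 CPM against 64, 135, 82.6 and 114. All endoderm libraries were above all EpiSC libraries (log2 change 1.13, SE 0.27, edgeR adjusted p = 0.00379). Pcdh8, known as paraxial protocadherin and expressed in the primitive streak region of the embryo, had 1.52, 5.75, 1.59, 2.72 and 4.39 CPM against 10.7, 11.4, 52.8 and 9.23. Replicate 44 was the highest by far. The log2 change was 2.72 (SE 0.63, edgeR adjusted p = 0.00334), and 1.71 without that library.

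The other non-clustered protocadherins fell or were not called. Pcdh1 (ENSMUSG00000051375), which is found at epithelial contacts, had 118, 153, 114, 158 and 162 CPM in EpiSCs and 0.661, 1.38, 0.43 and 2.64 in endoderm. No EpiSC library came near the endoderm range, and the log2 change was -6.70 (SE 0.51, edgeR adjusted p = 3.24e-06), or -7.32 without endoderm replicate 51. Pcdh11x had 2.39, 2.66, 2.6, 3.11 and 2.7 CPM against 0, 0, 0.313 and 0 (log2 change -5.28, SE 1.24, edgeR adjusted p = 0.00378). Without endoderm replicate 44, the one with counts, the fitted value was -9.58. Pcdh19, an X-linked gene known from an epilepsy limited mostly to females, had 3.98, 10.4, 4.9, 11.7 and 20.1 CPM against 0.356, 0.646, 2.19 and 0.925. Its EpiSC values followed the feeder genes from replicate 1 at the low end, 3.98 CPM, to replicate 51 at the high end. The highest endoderm library had 2.19 CPM, and the part of the feeders in the difference was not tested. The log2 change of Pcdh19 was -3.31 (SE 0.66, edgeR adjusted p = 0.00142), and -3.95 without endoderm replicate 44. Pcdh17 and Pcdh18, outside the rule for named genes, were lower with log2 changes of -2.01 and -1.01. Pcdh9 had a log2 change of -2.32 that did not pass (edgeR adjusted p = 0.0862).

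Of the 58 clustered protocadherins on chromosome 18, 34 were tested, 6 were lower and 3 higher. Among the 42 other members, 25 were tested, 19 were lower and 3 higher, beside 30.6% lower and 31.5% higher of all genes. The difference between clustered and other members was not tested. Genes of a cluster share constant exons or have near-identical variable exons, so how reads were divided between them is uncertain. In the Pcdhg cluster all 22 genes were tested and 5 were lower. Pcdhgc3 (ENSMUSG00000102918), one of the C-type genes that lie next to the constant exons, had 101, 122, 165, 135 and 165 CPM in EpiSCs and 11.5, 53.7, 26.7 and 49.2 in endoderm (log2 change -1.96, SE 0.40, edgeR adjusted p = 0.00154). Its neighbour Pcdhgc5 fell from 9.78 ± 2.36 CPM (SD, n = 5) to 1.17 ± 0.702 (SD, n = 4), a log2 change of -3.06 (SE 0.44). The third C-type gene, Pcdhgc4, was not called. It had 65.3, 37.2, 57, 50.4 and 45.2 CPM in EpiSCs and 69.9, 62.8, 60.3 and 68.1 in endoderm, with a log2 difference of 0.36 (SE 0.17, edgeR adjusted p = 0.0862). Whether Pcdhgc4 differed from Pcdhgc3 in its response was not tested. Pcdhga11 had 12.4, 14.1, 12.8, 8.12 and 15.6 CPM against 0.254, 2.17, 1.41 and 0.985, and Pcdhga10 had 2.46, 4.49, 4.83, 5.08 and 7.09 against 0, 0.829, 0.117 and 0. Both fell, with log2 changes of -3.36 (SE 0.52) and -4.22 (SE 1.16). That of Pcdhga10 was -7.03 without endoderm replicate 4.

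In the Pcdha cluster 5 of 14 genes could be tested and 1 was lower. Pcdhac2 (ENSMUSG00000102697), a C-type gene, had 1.02, 1.68, 1.95, 1.75 and 2.84 CPM in EpiSCs and 0 in every endoderm library, so it was at least 20.2-fold lower (edgeR adjusted p = 9.13e-05). In the Pcdhb cluster 7 of 22 genes were tested, 3 were higher and none was lower. Pcdhb21 had 0.493, 0.305, 0.469, 0.615 and 0.443 CPM in EpiSCs and 1.22, 1.86, 5.75 and 1.88 in endoderm (log2 change 2.51, SE 0.54, edgeR adjusted p = 0.00225), or 1.83 without endoderm replicate 44. Pcdhb20 rose from 0.39 ± 0.277 CPM (SD, n = 5) to 1.7 ± 0.461 (SD, n = 4). Pcdhb19 was called at the edge of the threshold (log2 change 1.49, SE 0.59, edgeR adjusted p = 0.0458), its groups overlapped, and without endoderm replicate 44 it had a log2 change of 0.78 (adjusted p = 0.221). The summed level of the Pcdhb cluster was 5.95 ± 2.2 CPM in EpiSCs and 13.1 ± 8.28 in endoderm, with 7.67, 7.97, 25.3 and 11.6 in endoderm replicates 2, 4, 44 and 51. That of Pcdha was 11.7 ± 2.1 and 5.62 ± 4.4, with 2.29, 3.07, 12 and 5.17 in the same libraries. Endoderm replicate 44 was the highest in both and for Pcdha lay inside the EpiSC range. Without it, a choice made after seeing the data, the endoderm means were 9.07 ± 2.16 CPM for Pcdhb and 3.51 ± 1.49 for Pcdha (SD, n = 3). The Pcdhb ranges overlapped with and without it, since EpiSC replicate 44 was at 9.7 CPM. The summed level of Pcdhg was 269.6 ± 36.7 and 127 ± 27.9.

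The proteins that cadherins work with were described from lists of 5 kinds, whose counts stand beside the 30.6% lower and 31.5% higher of all genes. Of the catenins and junction linkers, 10 were tested, 6 were lower and none was higher. Ctnna2, the neural alpha-catenin, had a mean of 1.72 CPM in EpiSCs and 0 in endoderm, and Pkp4, a p120 relative, fell from 167 to 41.1 CPM (log2 change -2.02). Ctnnd2, delta-catenin, had a log2 change of -2.97 (SE 1.15). The general catenins Ctnna1 and Ctnnb1 were not called. Another list held desmosomal cadherins, calsyntenins and other cadherin-related genes, among them the Cdhr genes and Ret. Of its 9 tested genes, 2 were higher and 3 lower. Cdhr1 rose from 4.21 to 25 CPM and the desmocollin Dsc2 from 11.5 to 38.3. Clstn3, Clstn2 and Ret had log2 changes of -2.13, -2.12 and -1.52.

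Of 18 planar polarity and Fat pathway genes, all tested, 2 were higher and 7 lower. Lix1l fell from 17.2 to 0.595 CPM, and Scrib and Ptk7 had log2 changes of -1.81 and -1.79, while Fzd6 and Dvl2 rose by 1.08 and 0.65 on the log2 scale. Of 15 genes that shape the protocadherin clusters through looping or DNA methylation, 13 were lower and none was higher. Dnmt3a, a de novo DNA methyltransferase, fell from 183 to 27.9 CPM, the cohesin subunit Rad21 from 329 to 109, and Dnmt1 had a log2 change of -1.07. The looping factor Ctcf had a log2 change of -0.50, whereas Smc3 and Dnmt3b were not called. Of 7 cadherin repressors of epithelial-mesenchymal transition, 4 were lower and 1 was higher. Zeb2 fell from 14.8 to 0.492 CPM, Zeb1 from 26.5 to 1.49 CPM, Snai2 had a log2 change of -3.04 and Tcf3 one of 1.37. Zeb1, Zeb2, Snai2 and Twist1 are also expressed by fibroblasts, and the part of the feeders in their fall was not tested.

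Accessible regions of the members moved both ways in endoderm. Of 422 tested regions, 136 (32.2%) were higher and 103 (24.4%) lower, shares near the 32.6% and 25% of all 113870 regions tested, so these counts say nothing particular about the members. Regions near genes whose RNA fell did not all lose accessibility. In Cdh4 (tested 42, higher 19, lower 7), the region with the smallest p, chr2:179894322-179894609, had 2.71, 3.8, 1.46 and 1.18 CPM in EpiSCs and 31.9, 37.5, 35.2 and 27.8 in endoderm (log2 change 3.74, SE 0.27, edgeR adjusted p = 1.39e-09). That of Fat3 (tested 24, higher 7, lower 10), chr9:16289391-16289648, rose from 2.23 ± 0.661 to 16.5 ± 3.71 CPM (SD, n = 4 each). In Fat1 the region chr8:44977030-44977248 had 0.302, 0.949, 0 and 1.47 CPM in EpiSCs and 12, 8.5, 12.3 and 10 in endoderm (log2 change 3.78, SE 0.45, edgeR adjusted p = 5.16e-07), while its RNA fell. Other regions went with the RNA. In Cdh3 the region chr8:106515991-106516197 had 10.9, 7.78, 6.8 and 18.1 CPM in EpiSCs and 0.591, 0.315, 0.812 and 0.556 in endoderm (log2 change -4.21, SE 0.45). Cdh10 and Cdh22 had regions with log2 changes of -1.58 and -1.34, at chr15:18818557-18818796 and chr2:165161820-165162221.

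Cdh13 and Pcdh7 were members whose RNA rose. Cdh13 had 46 tested regions, 24 higher and 10 lower, beside the 32.6% higher and 25% lower of all regions, and at chr8:118364722-118364969 it went from 0.917 ± 0.226 to 15.5 ± 3.04 CPM (log2 change 4.11, SE 0.33). Pcdh7 had 15 tested regions, 5 higher and 3 lower, which is near the shares of all regions, and chr5:57949013-57949309 rose from 0.709 ± 0.306 to 7.97 ± 2.4 CPM. Celsr1, whose RNA was not called, had 20 tested regions with 13 higher and 3 lower. At chr15:85994944-85995252 it had 0.905, 1.99, 1.7 and 0.295 CPM in EpiSCs and 19.9, 29, 27.6 and 21.7 in endoderm (log2 change 4.27, SE 0.34, edgeR adjusted p = 3.47e-09). Pcdh19 at chrX:133609174-133609362 and Cdh11 at chr8:102726684-102726802 also rose, by 3.59 and 3.90 on the log2 scale, although the RNA of both was lower. Leaving out EpiSC replicate 51 gave 2.97 and 3.31, and leaving out EpiSC replicate 4 gave 4.82 and 4.77.

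The protocadherin clusters held few regions. In Pcdha 5 of 8 tested regions were lower and 1 higher, and in Pcdhg 5 of 20 were lower and 2 higher, beside 25% lower and 32.6% higher of all regions. Gene models in these clusters overlap, so a region there belongs to several members. The region chr18:37771572-37771742, inside Pcdhga10, had 5.88, 5.22, 8.75 and 9.44 CPM in EpiSCs and 0, 0, 0.271 and 1.11 in endoderm (log2 change -4.63, SE 0.62, edgeR adjusted p = 2.28e-06), or -5.91 without endoderm replicate 51. In Pcdhb 2 regions were tested and neither was called.

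Regions overlapping the 250 bases before a start were found for 20 members, 19 such regions were tested, and 4 were lower, 1 higher and 14 not called, beside 25% lower and 32.6% higher of all regions. The Cdh6 promoter printed above had 45.5, 40.7, 31.3 and 39.2 CPM in EpiSCs and 9.06, 10.6, 15.8 and 8.9 in endoderm (log2 change -1.81, SE 0.20, edgeR adjusted p = 1.82e-07). The Cdh9 promoter had 11.3, 6.26, 3.4 and 12.1 CPM against 0.788, 1.26, 2.3 and 1.67 (log2 change -2.44, SE 0.43, edgeR adjusted p = 5.65e-05). It was open in EpiSCs although Cdh9 RNA was at 0 in every B6 library. Those of Cdh8 and Cdh18 were lower too, and that of Cdh20 was higher.

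Of 8 promoter regions tested at members whose RNA fell, 1 was lower, that of Cdh6, and 7 were not called. These counts rest on the RefSeq promoter starts, which can lie inside the gene model. For Cdh10 the promoter is chr15:18820079-18820328, while the gene model starts at 18818869. The region chr15:18818557-18818796, just before that gene start, fell from 28.8 to 9.61 CPM and is not among the 8. For Fat1 the promoter begins at 44949958 and the gene model at 44933100. At Fat3 the region had 11.2, 13.7, 9.96 and 11.1 CPM in EpiSCs and 6.9, 9.45, 7.31 and 10 in endoderm. The difference (log2 -0.48, SE 0.24) did not pass (edgeR adjusted p = 0.0926), beside no RNA count in endoderm. At Celsr3 it had 16, 17.2, 11.9 and 21.8 CPM against 11.4, 15, 13.8 and 12, with a log2 difference of -0.37 (SE 0.21, edgeR adjusted p = 0.143). The promoter of Pcdh8, whose RNA rose, had 19.3 ± 3.52 CPM in EpiSCs and 18.3 ± 1.51 in endoderm. The 4 promoters with a lower region held 6 to 20 CG dinucleotides (median 7), and those not called 5 to 30 (median 17.5). The difference in CG content was not tested.

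**Figure D3:**
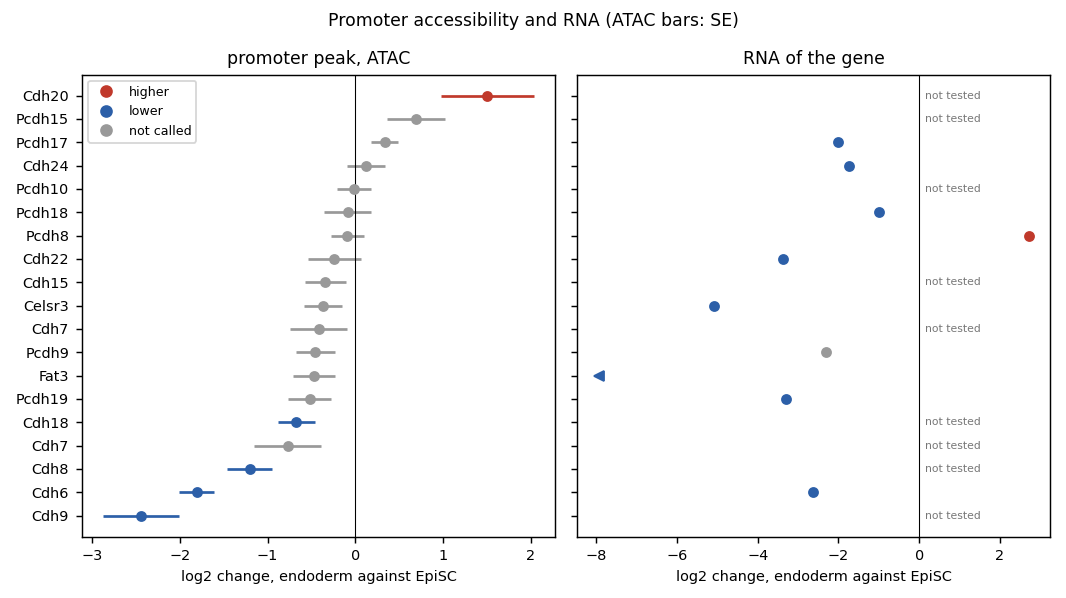
Log2 change of each tested promoter region with its SE beside the log2 RNA change of the same member, B6 endoderm against EpiSCs; Fat3 RNA is drawn at its bound and Cdh7 has 2 regions. RNA points of lower members reach far below 0 where most promoter regions stay within 1 of it.

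The strains were compared as EpiSCs, with the same 5 B6 libraries as controls of PWK and of B6.129 F1, so these comparisons are not independent. Library scaling differed slightly from that of the endoderm table, and B6 levels here are those of the table of strains. PWK/PhJ is a strain derived from wild mice. Its sequence differs from the mm10 reference more than that of B6, and the effect on read counting was not tested. Of 78 tested members, 28 (35.9%) were higher in PWK and 5 (6.41%) lower, beside 12% higher and 14.5% lower of all 14822 genes. The median log2 change was 0.89 over the tested members and -0.01 over all genes. In 26 of the 28, B6 replicate 51, which had as much feeder RNA as the PWK libraries, lay below every PWK library. That count follows from the calls, which used replicate 51, since the same 26 had no overlap between the groups. The part of the feeders in these calls was not tested. Scaling by total counts instead gave 2226 higher and 1708 lower genes of all, in place of 1781 and 2142, and 33 higher and 4 lower members. Without any 1 of the PWK libraries 17 to 19 members were higher and 1 or 2 lower, and 1126 to 1138 of all genes were higher. Without B6 replicate 51, 38 members and 2428 of all genes were higher. With at least 10 counts required in every library 13 members were higher, beside 1522 of all 12223 genes then tested.

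The Pcdha and Pcdhb clusters held most of these calls, with 7 of 13 tested Pcdha genes and 9 of 12 Pcdhb genes higher. Pcdha6 had 0.198, 0.596, 0.257, 0.168 and 0.0769 CPM in B6 and 11.2, 8.14 and 11.1 in PWK (log2 change 5.28, SE 0.64, edgeR adjusted p = 0.000203). Pcdha8 had no count in any B6 library and 2.79, 2.05 and 1.35 CPM in PWK, at least 18.3-fold higher (edgeR adjusted p = 0.000989). Pcdha2 was also at 0 in all B6 libraries, with 0.841, 0.707 and 0.436 CPM in PWK, at least 5.86-fold higher. Pcdha5, Pcdha7 and Pcdha9 followed, with mean levels of 0.335, 0.317 and 0.34 CPM in B6 against 3.18, 2.76 and 1.8 in PWK. The cluster as a whole had a summed level of 12.1, 10.6, 14.3, 14.2 and 9.65 CPM in B6 and 36.6, 27.6 and 33.7 in PWK. B6 replicate 51, which had the most feeder RNA of the B6 libraries, had the lowest of these sums, and the part of the feeders in the difference was not tested. Pcdha12 went the other way, with a log2 change of -1.41 (SE 0.36).

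The neighbouring Pcdhb genes showed the same direction. Pcdhb3 had 0.0396, 0.119, 0.184, 0.201 and 0.0384 CPM in B6 and 1.65, 1.52 and 2.02 in PWK (log2 change 3.82, SE 0.51, edgeR adjusted p = 0.000365). Pcdhb2 and Pcdhb14 had log2 changes of 3.76 (SE 0.79) and 3.45 (SE 0.55). Pcdhb8 and Pcdhb6 had at most 3 counts in every B6 library and were at least 7.85-fold and 7.51-fold higher. The summed Pcdhb level was 4.63, 5.24, 4.6, 10.1 and 6.34 CPM in B6 and 21.2, 21.9 and 21.5 in PWK. In the Pcdhg cluster 4 of 22 genes were higher and 2 lower, and its summed level overlapped between the strains (279 CPM on average in B6 and 304 in PWK). Pcdhgc4 was lower in PWK, with 68.1, 38.7, 58.1, 52.3 and 47.1 CPM in B6 and 28.7, 16 and 28.8 in PWK (log2 change -1.11, SE 0.22, edgeR adjusted p = 0.00379).

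**Figure D4:**
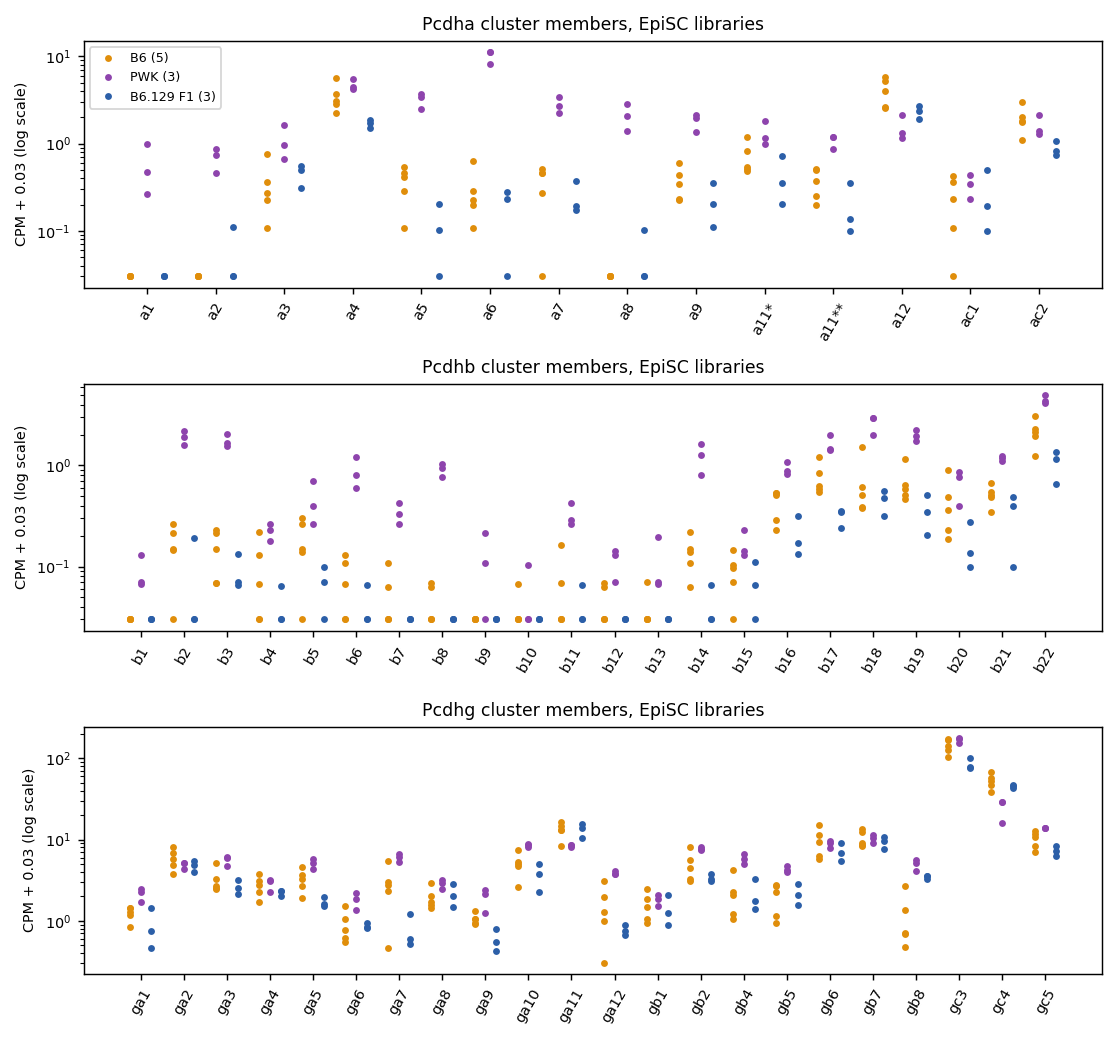
CPM + 0.03 on a log axis of clustered protocadherins in each EpiSC library by strain; a11* and a11** are the gene identifiers ENSMUSG00000007440 and ENSMUSG00000102206. PWK points lie above B6 and B6.129 F1 points for most Pcdha and Pcdhb genes, most widely at Pcdha6.

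Outside the clusters, 8 of 31 tested members were higher in PWK and 2 lower. Cdh8, a type II cadherin of neurons, had 0.237, 0.556, 0.294, 0.101 and 0.73 CPM in B6 and 2.39, 4.09 and 2.18 in PWK (log2 change 2.90, SE 0.53, edgeR adjusted p = 0.00246). Beyond the rule for named genes and chosen after their values were seen, Fat3 was at 43.4, 43.6 and 47.1 CPM in PWK, above all B6 libraries at 19.8 to 27.2 (log2 change 0.94). Celsr1 and Cdh3 were lower, with log2 changes of -0.61 and -0.78. Members that followed the feeder genes need their values beside them. Fat4 was at 13.8 to 17.8 CPM in PWK, with 10.8 CPM in B6 replicate 51 and 2.57 in B6 replicate 1. Cdh11 was at 63.9 to 66.3 CPM in PWK and at 63.3 in B6 replicate 51, and was not called (log2 difference 1.48, edgeR adjusted p = 0.175). The part of the feeders in the Fat4 call was not tested.

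**Figure D5:**
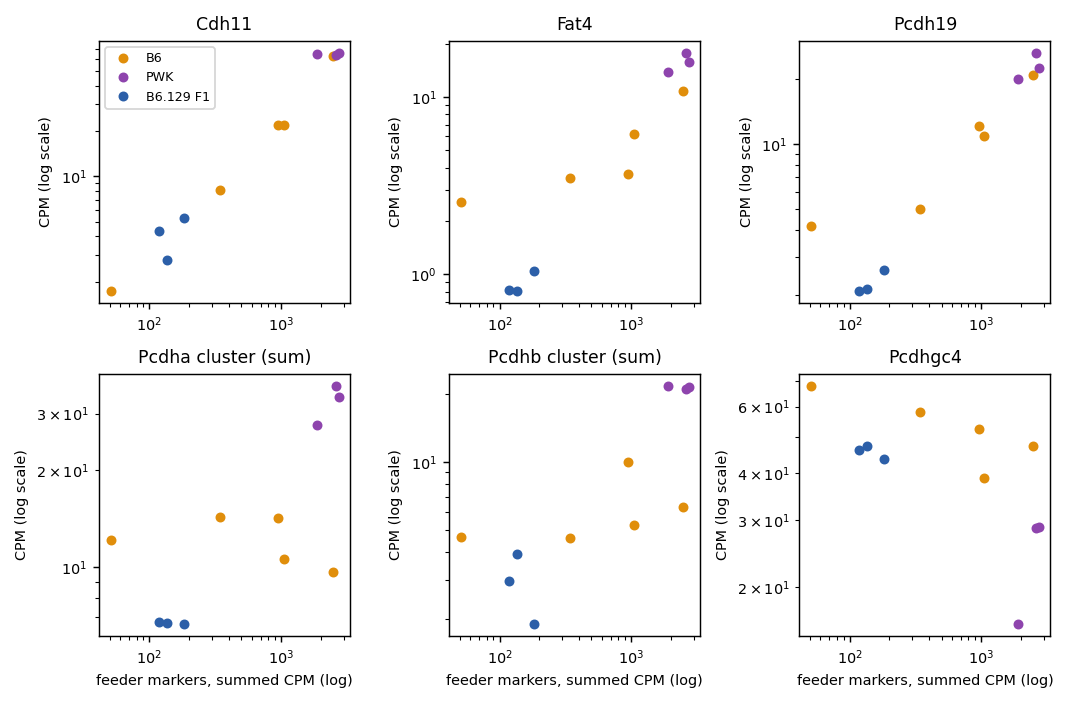
Summed CPM of 7 feeder fibroblast genes (x axis) against the CPM of Cdh11, Fat4, Pcdh19, Pcdhgc4 and the summed Pcdha and Pcdhb clusters (y axes) in each EpiSC library of the table of strains. Cdh11, Fat4 and Pcdh19 climb with the feeder genes from B6 replicate 1 to B6 replicate 51, whereas the Pcdha sum of B6 replicate 51, 9.65 CPM, is below that of every PWK library.

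In PWK some regions of the clusters were more accessible. Of 532 tested regions of members, 17 (3.2%) were higher and 15 (2.82%) lower, beside 1.42% and 3.68% of all 137667 regions. Without B6 replicate 1 or 4, 11 were higher and 4 or 3 lower. In the Pcdhb cluster 6 of 13 tested regions were higher and none lower. At Pcdhb6 the region chr18:37333738-37333838 had 0.311, 0.622, 0.502 and 0.91 CPM in B6 and 5.99 and 5.29 in PWK (log2 change 3.21, SE 0.57, edgeR adjusted p = 0.00361). At Pcdhb14 the region chr18:37449772-37450101 had 1.86, 2.59, 9.03 and 2.73 CPM against 20.4 and 18.9 (log2 change 2.39, SE 0.44, edgeR adjusted p = 0.00473), or 3.08 without B6 replicate 44. Regions of Pcdhb3 and Pcdhb8 were higher as well, by 2.09 and 3.93 on the log2 scale, but neither was called in every fit that left out 1 library (adjusted p up to 0.151 and 0.14). In the Pcdha cluster 2 of 15 were higher. The region chr18:36992845-36993038 rose from 1.71 ± 1.05 CPM (SD, n = 4) to 7 ± 0.557 (SD, n = 2). That call was lost without B6 replicate 4, 44 or 51 or either PWK library (edgeR adjusted p up to 0.112). Pcdha gene models overlap, so this region belongs to several members. It lies inside the Pcdha2 model, which starts at 36939205, and just inside the Pcdha8 model, which starts at 36992467. The strongest regions by p in the gene models of Pcdha9 and Cdh8, whose RNA was higher, had log2 differences of -0.79 and -1.48. Neither was called (edgeR adjusted p = 0.183 and 0.191). That of Pcdha9, chr18:37178378-37178611, lies near the end that the Pcdha gene models share, far from the Pcdha9 start at 36997880.

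Celsr1, lower in RNA, had 4 lower regions of 13 tested. Fat3, higher in RNA, had 2 higher and 1 lower, and at chr9:15924763-15925101 it had 1.55, 1.45, 1.76 and 2.12 CPM in B6 and 31 and 17.9 in PWK (log2 change 3.83, SE 0.32, edgeR adjusted p = 1.01e-05). This region was picked after its values were seen. Of 21 tested promoter regions none was higher in PWK and 1 was lower, that of Cdh18 (log2 change -1.17, edgeR adjusted p = 0.0161). Of 58 partner genes tested over the 5 lists, 5 were higher and 9 lower in PWK, beside 12% and 14.5% of all genes, and in B6.129 F1 1 gene, Ctnnb1, was lower (log2 change -0.32) and none was higher. The largest changes in PWK were Prickle3 (1.27) and Ankrd6 (0.99) on the higher side and Intu (-1.21), Vangl1 (-1.13) and Dsg2 (-1.06) on the lower.

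In B6.129 F1 EpiSCs no member was called higher and 7 of 78 were lower, beside 1.34% and 1.5% of all genes. At an unadjusted p under 0.05, 2 members were higher and 24 lower, and the same count over all genes is not given here. DESeq2 called 1 member higher and 16 lower, beside 876 higher and 1124 lower of all 14822 genes. Fat4 had 1.04, 0.818 and 0.81 CPM against 2.57 to 10.8 in B6 (log2 change -2.58, SE 0.47, edgeR adjusted p = 0.0306). Pcdh19 had 2.61, 2.1 and 2.15 CPM (log2 change -2.21, SE 0.49, edgeR adjusted p = 0.0437), and Cdh6 had 0.973, 0.712 and 1.09 (log2 change -1.75, SE 0.33, edgeR adjusted p = 0.0306). Pcdh7 was at 18.9, 24.1 and 25 CPM and Cdh4 at 23.2, 20.6 and 19.8, with log2 changes of -1.05 and -0.62. Pcdhgc3 at 77.9, 101 and 76.9 CPM and Cdh13, with log2 changes of -0.74 and -1.09, complete the list. B6 replicate 1, whose feeder sum of 50.7 CPM was below that of every F1 library, was above all F1 libraries for each of these 7. That too follows from the calls, which used replicate 1, since all 7 had no overlap between the groups. The part of the feeders was not tested. The calls were not stable. Without any single F1 library, or in a fit of these 2 groups alone, none of the 7 was called, and the 2-group fit called none of all genes.

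The single DBA/2J library allows no test and gives values only. Of 60 members tested above with at least 1 CPM in that library or in the B6 mean, 13 were higher and 2 lower by more than 1 on the log2 scale, beside 3.77% and 5.1% of 13101 genes. Pcdha7 was at 1.71 CPM, with 0 to 0.482 in the B6 libraries, and Pcdhb21 at 1.53 with 0.315 to 0.624. Pcdhb16 was at 1.23 CPM and Pcdha11 (ENSMUSG00000102206) at 1.15. Pcdhga11 was at 4.2 CPM, below all B6 libraries (8.24 to 16). Cdh11 was at 69.3 CPM, near the highest B6 library at 62.6. Among 508 regions of members counted in DBA ATAC-seq, 27 were higher and 79 lower by the same size, beside 4.45% and 18.4% of 133345 regions.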

How the data were processed

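RNA-seq and ATAC-seq of the EpiSC and endoderm libraries were used as the authors deposited them, as whole-number counts per Ensembl gene and per peak. Per the submitters' processing notes, fastp, Bowtie2, MACS2, featureCounts and DESeq2 were used for ATAC-seq and Salmon, featureCounts and DESeq2 for RNA, with mm10. Versions, roles and order are not given in the sources used here, nor whether peak starts count from 0 or 1. Each peak table has 1 peak set for all its libraries. In the EpiSC peak table, 17 columns match no sample here and were not used. Symbols, positions and promoters came from RefSeq tables (GRCm38.p6).

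Groups came from the labels. Each comparison was fitted on its whole table with edgeR 4.0.16 in R 4.3.3 (TMM, filterByExpr, robust quasi-likelihood test, Benjamini-Hochberg over all features, called at adjusted p under 0.05). PWK and B6.129 F1 shared 1 fit. CPM use TMM-scaled totals and are not per length, so levels of different genes were not compared. Fold bounds set 3 counts in each library of the empty group. DBA ratios used a pseudocount of 0.1 CPM. Precision follows from the library totals, and the fit was checked on simulated counts. Figures used Python 3.11.15 and matplotlib 3.10.9.

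Members were named as follows: the 15 largest called changes in each direction with a mean of at least 1 CPM in 1 group, the highest member of each subfamily, the 12 largest in a strain comparison, at most 6 for DBA, and for each the region with the smallest p, up to 12. Members named beyond this rule, among them Dchs1, Celsr2, Cdh24, Pcdhgc4 and Pcdha12, were chosen after their values were seen. Partner genes were called ones with the 3 largest changes each way. The members, the subfamily, partner and marker lists and the tests were chosen with earlier results of these data known. Alternatives were other scalings, filters, DESeq2 1.42.0, leaving out each library, a replicate block, the 2 groups alone and regions near gene ends. PWK endoderm is not analysed here.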

Additional observations from a re-analysis of the deposited data

Results flagged for a closer look

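In 9 of 90 groups of 4 or 5 libraries, for the members and regions named above, 1 library stood apart from the others by Dixon's 95% criterion. For normally distributed values chance meets it in about 1 of 20 groups. The CPM here include zeros, and 1 library with counts among empty ones is always flagged, as at Fat4 and Pcdh11x. The 9 of 90 therefore cannot be set against that rate. Endoderm replicate 44 was the highest for Pcdh8 (52.8 CPM, others 9.23 to 11.4), Pcdhb21 (5.75 CPM, others 1.22 to 1.88) and Pcdh11x (0.313 CPM, others 0). Endoderm replicate 51 was the highest for Cdh22 (1.8 CPM, others 0 to 0.166), replicate 2 for Fat4 (0.508 CPM, others 0) and replicate 4 for Pcdhga10 (0.829 CPM, others 0 to 0.117). Among B6 EpiSC libraries, replicate 44 was the highest for Pcdhb19 RNA (1.1 CPM, others 0.433 to 0.591) and for the accessible region of Pcdhb14 (9.03 CPM, others 1.86 to 2.73). Replicate 1 was the highest for the Pcdha cluster region chr18:36992845-36993038 (3.26 CPM, others 1 to 1.35). In each case the library that stood apart was the highest of its group.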

How the results depend on the processing

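Of the members and regions chosen by the rule for named genes, none changed direction under any alternative run in which it was tested. Members named beyond that rule, the promoter regions and the Fat3 region in PWK were not followed through each alternative. Of the items chosen by the rule, 374 of 387 values kept their side of the threshold in RNA of endoderm (2 items lost it at times, Cdh11 and Pcdhb19), 156 of 156 in RNA of PWK, 54 of 98 in RNA of B6.129 F1 and 170 of 170 in ATAC-seq of endoderm. In ATAC-seq of PWK 59 of 72 did. The 3 regions that lost the call at times were chr18:36992845-36993038 in the Pcdha cluster and those of Pcdhb3 and Pcdhb8. All these totals hold only the fits in which an item was tested. Each of the 12 members named for PWK RNA had under 10 counts in some B6 library. None of them was therefore tested with at least 10 counts required in every library, and the 156 values leave that run out. With at least 10 counts required in every library, which tests fewer features and drops those that are empty in 1 group, lower members in endoderm were 11 in place of 25 and higher members in PWK 13 in place of 28. Regions in endoderm were then 38 higher and 23 lower (136 and 103 before), beside 9868 and 8144 of all 44872 regions then tested. In PWK 4 were higher and 7 lower (17 and 15 before), beside 667 and 1443 of all 68102. With no filter 158 regions were lower in endoderm, beside 40981 of all 156461. Counting regions within 2 kb of a gene end only left 7 higher and 18 lower in endoderm, and 8 higher and 0 lower in PWK. Regions near the ends of all genes were not counted, so these numbers have no share to stand beside and are not read as a result about the members. DESeq2 gave 1 higher and 16 lower members in B6.129 F1 (876 and 1124 of all genes), and a fit of the 2 groups alone gave 0 lower. Leaving out 1 library at a time gave 23 to 29 lower and 5 to 6 higher members in endoderm. In PWK it gave 17 to 38 higher (17 to 19 without any 1 of the 3 PWK libraries, and 38 without B6 replicate 51) and 1 to 5 lower (1 or 2 without any 1 of the PWK libraries). In B6.129 F1 it gave 0 to 1 higher and 0 to 15 lower (15 without B6 replicate 1, 3, 1 and 4 without replicates 4, 44 and 51, and 0 without each F1 library). Without B6 replicate 1 all genes also moved, to 1001 higher and 951 lower from 199 and 222. For regions it gave 120 to 153 higher and 108 to 136 lower in endoderm, and 11 to 17 higher and 3 to 19 lower in PWK (11 higher without B6 replicate 1 or 4; 4, 3 and 8 lower without B6 replicates 1 and 4 and the unnumbered PWK library). Except where stated, the cause of these shifts was not tested. Scaling by total counts moved the median log2 change of all features by under 0.1 in PWK RNA, to -0.10 in endoderm RNA, to -0.22 in endoderm ATAC-seq and to 0.12 in PWK ATAC-seq. For libraries that share a number, each gene's or region's group mean was subtracted from its log CPM. The remaining deviations of same-numbered EpiSC and endoderm libraries correlated at 0.096, 0.088, 0.18 and 0.24 in RNA. In ATAC-seq they correlated at 0.021, -0.0046 and 0.048. These are not correlations of whole profiles and do not settle whether the numbers mark pairs, and the main fits did not pair them. With the replicate number as a block, over libraries that share a number, 5 members were higher and 25 lower in endoderm RNA, beside 6 and 24 without the block, and 113 regions were higher and 80 lower, beside 122 and 99. By these deviations, each of the 4 EpiSC RNA libraries compared correlated best with the endoderm library of its own number. In ATAC-seq only replicate 51 did. This is a hint from the data and not from the design. Depth limits the clustered genes, many of which had under 1 CPM.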
